A study of Mus musculus with 40 samples.

Results

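The interleukin-1 (IL-1) family was followed through 9 genes of the 55414 gene identifiers in the count table. They are the ligands Il1a, Il1b, Il18 and Il33, the receptor antagonist Il1rn, the signaling receptors Il1r1 and Il1rl1 (ST2, the IL-33 receptor), the decoy receptor Il1r2 and the co-receptor Il1rap. The genes were taken by name from the family, with earlier results of these data known. All 9 passed the filter of at least 10 counts over all libraries and were among the 25210 genes tested.

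RNA was sequenced from cultured cardiac fibroblasts of TAK1fl/fl mice on the C57BL/6J background, in which loxP sites flank exon 2 of Map3k7, the gene for TGFβ-activated kinase 1 (TAK1). Cells of every group carried the floxed allele and an adenovirus with a CMV promoter, either ad-CMV-LacZ (LacZ, TAK1 intact) or ad-CMV-iCre (iCre, TAK1 deleted). Cells with each virus were then kept for 24 h without ligand (CTRL) or with bFGF at 20 ng/ml, TGFβ at 10 ng/ml, IL-1β at 15 ng/ml or TNFα at 10 ng/ml, with 4 libraries in each of 10 groups. All cells had been grown to passage 1 in medium with bFGF at 20 ng/ml and were serum-starved for the treatment, CTRL included. The mice were adult, and the study describes the replicates as biological and male. The labels do not tie a replicate number to an animal or culture. The virus reaches the cells in culture and is not restricted to a cell type by its promoter. Levels below are in CPM, the read counts of a gene relative to the library total after TMM scaling, and values of 4 libraries are given in the order of replicates 1 to 4.

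IL-1α and IL-1β bind IL1R1, which then recruits the accessory chain IL1RAP. IL-33 binds ST2, which pairs with the same accessory chain. The paired receptors share a Toll/IL-1 receptor domain that calls on MyD88, IRAK kinases, TRAF6 and TAK1. IL1R2 binds IL-1 without signaling, and the IL-1 receptor antagonist occupies IL1R1 without recruiting IL1RAP. Pro-IL-1β and pro-IL-18 are cut by caspase-1, whereas IL-33 is a nuclear protein of stromal and barrier cells that is released on injury. Cardiac fibroblasts are known as a source of IL-33 and as responders to IL-1.

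The start regions of 4 of these transcripts are shown because the widest range of levels below is that of Il1rl1, and because the windows of Il1r1 and Il1a, which were called after IL-1β, hold a searched motif. RefSeq (GRCm38.p6) gave 14 windows of 300 bases, from 250 before to 50 after a start, for all 9 members. They were searched on both strands for the NF-κB consensus, named κB here, and for the AP-1 motif TGANTCA, and the search motifs do not overlap each other in any window shown. Capitals mark a match. The κB consensus stood in 1 of the 14 windows, against 4.51% of 32851 windows of all genes, and the AP-1 motif in 2 of 14, against 7.81%. A match describes letters and is no evidence of binding.
Il1rl1, first start, chr1:40429320-40429619, plus strand: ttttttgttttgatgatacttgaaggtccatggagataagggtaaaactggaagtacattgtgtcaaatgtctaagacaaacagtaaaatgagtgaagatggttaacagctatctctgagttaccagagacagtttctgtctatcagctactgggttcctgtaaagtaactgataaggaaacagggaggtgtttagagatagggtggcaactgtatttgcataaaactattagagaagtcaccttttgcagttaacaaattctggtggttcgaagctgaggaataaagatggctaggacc
Il1rl1, second start, chr1:40439379-40439678, plus strand: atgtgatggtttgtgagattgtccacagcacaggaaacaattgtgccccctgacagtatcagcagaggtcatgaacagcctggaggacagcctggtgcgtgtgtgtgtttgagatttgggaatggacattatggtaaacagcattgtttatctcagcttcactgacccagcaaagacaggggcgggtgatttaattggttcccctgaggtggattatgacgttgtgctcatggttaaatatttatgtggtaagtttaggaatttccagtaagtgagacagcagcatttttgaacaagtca
Il1r1, second start, chr1:40266336-40266635, plus strand: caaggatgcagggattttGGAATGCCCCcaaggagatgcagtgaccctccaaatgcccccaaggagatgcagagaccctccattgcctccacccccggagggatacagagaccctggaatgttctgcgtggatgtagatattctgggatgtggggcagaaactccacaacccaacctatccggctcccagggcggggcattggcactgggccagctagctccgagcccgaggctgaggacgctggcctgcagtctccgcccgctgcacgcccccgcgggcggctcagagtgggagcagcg
Il1a, chr2:129309923-129310222, minus strand: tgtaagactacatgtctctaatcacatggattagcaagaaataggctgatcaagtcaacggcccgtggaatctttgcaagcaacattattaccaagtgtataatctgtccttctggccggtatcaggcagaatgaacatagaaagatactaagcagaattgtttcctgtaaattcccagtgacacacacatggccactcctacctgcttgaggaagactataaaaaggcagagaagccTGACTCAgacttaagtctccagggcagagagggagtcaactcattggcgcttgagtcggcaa
The starts of Il1rl1 lie 10059 bases apart, and neither window held either motif. Counts are per gene, so they do not tell which start was used, nor whether the RNA encoded the membrane or the soluble form of ST2. In Il1r1 the κB match began at position -232 relative to the second start, and in Il1a the AP-1 match began at position -12. The other AP-1 match was at position -141 of the first Il1rn window.

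Total counts per library lay between 25360947 and 66160732 with a median of 36183962, and 3 counts corresponded to 0.045 to 0.118 CPM. Map3k7 was at 144 to 251 CPM in the LacZ libraries and at 122 to 160 CPM in the iCre libraries, a count over all exons that does not resolve the deleted exon. The 10 fibroblast markers were all expressed, with summed levels of 15351 to 69714 CPM, against 21.8 to 217 CPM for 12 macrophage markers. Mast cell markers, 4 tested of 7 listed, summed to 0.185 to 10.8 CPM, and neutrophil markers, 5 tested of 7 listed, to 0 to 1.4 CPM.

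Libraries numbered 2 stood apart from the rest in every group. Of the 13090 genes that averaged 1 CPM or more, replicate 2 was the highest of its group in all 10 groups for 639 genes and the lowest in all 10 for 630, whereas for replicates 1, 3 and 4 the highest counts of genes were 202, 19 and 52. Il1rl1 was among the 639 genes. Tbx4, a transcription factor gene named after its values were seen, lay at 36.2 to 82.9 CPM in replicate 2 and at 1.1 to 5.87 CPM in the others. Nkx2-5, a cardiac transcription factor gene also named after its values were seen, lay at 0.21 to 0.705 CPM in replicate 2 and at 1.71 to 9.62 CPM in the others. Macrophage markers summed to 21.8 to 84.3 CPM in replicate 2 and to 25.5 to 217 CPM in the others. Mast cell markers summed to 0.185 to 10.8 CPM in replicate 2 and to 0.337 to 6.56 CPM in the others. Kit held most of the counts in this sum, with 4388 over all libraries against 368 for Mcpt4 and 213 for Cpa3. For Mcpt4 and Cpa3, replicate 2 was the lowest of its group in 8 and 5 of the 10 groups and the highest in 0 and 2. What set these libraries apart was not tested. Results are therefore given without a block and, where a call differs, with the replicate number as a block, and results that rest on replicate 2 are also given without it. Calls are those of edgeR unless DESeq2, which was run without a block, is named.

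The members spanned the detection limit to high expression. Il1b had fewer than 10 counts in 40 of 40 libraries, with 31 counts in all, and Il1a in 39 of 40, with 63 counts in all. Il1r2 fell under 10 counts in 9 libraries, of LacZ TGFβ, LacZ TNFα, iCre CTRL and iCre TGFβ, and Il18 in 2 of iCre TGFβ, so that values against these groups rest on few counts, whereas Il1rn, Il33, Il1r1, Il1rap and Il1rl1 did so in none. Divided by exon length, levels in LacZ CTRL fibroblasts were highest for Il1r1 at 31.9 CPM per kb, then 15.0 for Il33, 5.93 for Il1rl1, 5.01 for Il1rap, 2.03 for Il18, 1.37 for Il1rn and 0.27 for Il1r2. The values of Il1rl1 and Il1rn were raised by replicate 2: their LacZ CTRL means were 40.9 and 7.57 CPM and their medians 1.17 and 3.62 CPM.

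**Figure D1:**
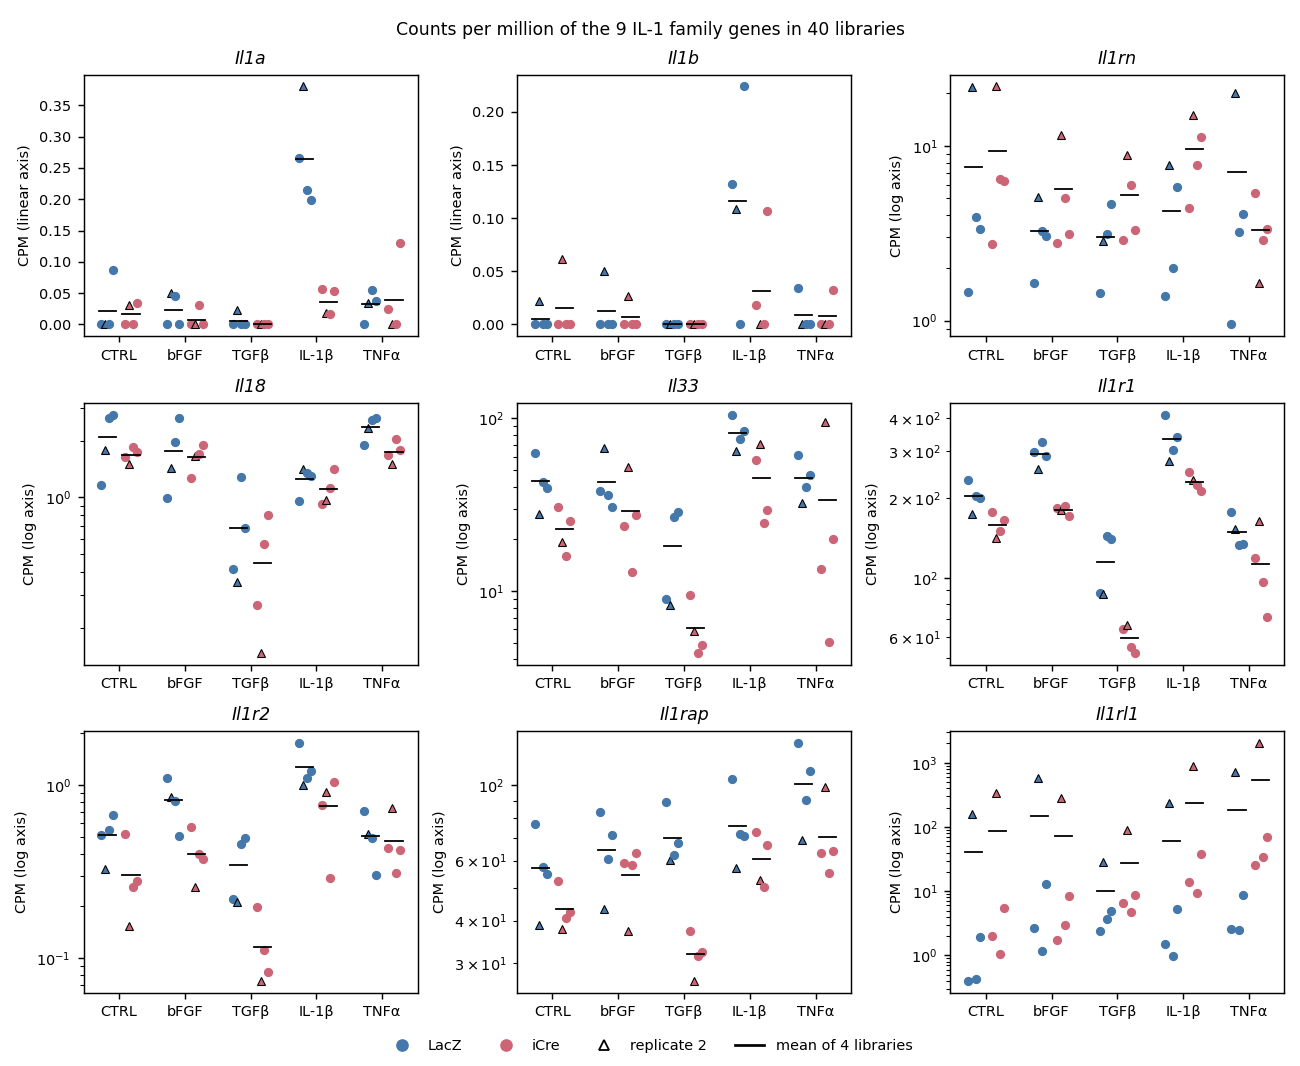
CPM of each gene in the 40 libraries, by ligand on the x axis and virus by colour, with triangles for replicate 2 and bars for the mean of 4 libraries (linear axis for Il1a and Il1b, log axis for the others). Il1a lay between 0.199 and 0.38 CPM in LacZ fibroblasts with IL-1β and reached at most 0.13 CPM elsewhere, and replicate 2 was the highest Il1rl1 library in all 10 groups.

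The ligand genes Il1a and Il1b were detected mainly after IL-1β in TAK1-intact fibroblasts. In these bulk libraries, here and below, fewer cells of a type and less RNA per cell cannot be told apart. Il1a (chr2:129299610-129309972, minus strand) was at 0.265, 0.38, 0.214 and 0.199 CPM in LacZ IL-1β libraries, from 8, 14, 6 and 8 counts. In LacZ CTRL libraries it was at 0, 0, 0 and 0.0872 CPM, from 3 counts in all, and in iCre IL-1β libraries at 0.0561, 0.0182, 0.0172 and 0.0535 CPM. The 4 LacZ IL-1β libraries lay above every other library of the series. The ratio of summed counts to LacZ CTRL was 13.9 (95% exact conditional interval 4.39 to 70.5, counting error only), and Il1a was called (log2 fold change 3.70 ± 0.96 SE, edgeR adjusted p = 0.021). The same level stood 7.14 times above that of iCre IL-1β libraries (interval 3.13 to 19), and Il1a was lower in the iCre libraries (log2 fold change -2.83 ± 0.59, adjusted p = 0.00883). The interaction of IL-1β with TAK1 deletion was not called for Il1a (log2 -2.57 ± 1.73, adjusted p = 0.455). Il1a was higher with IL-1β than with TNFα in LacZ fibroblasts (2.87 ± 0.66, adjusted p = 0.021), a call lost without any 1 of the 4 replicates (adjusted p up to 0.0983). The iCre-against-LacZ call was lost without replicate 2 or 3 (adjusted p up to 0.0672), and the call against CTRL was lost without replicate 1, 2 or 3, where the adjusted p reached 0.101. The fitted value against CTRL was 3.08 to 3.33 in those fits and 6.56 without replicate 4, which held all 3 CTRL counts, so that CTRL was then at 0 and the value is no bound. An antisense gene, Gm14023, shares 222 exon bases with Il1a, and the strand setting of the counting is not given in the sources used here, so reads of the pair cannot be told apart.

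Il1b (chr2:129364570-129371139, minus strand), the gene for the ligand that was added to the cells, was counted 4, 4, 0 and 9 times in LacZ IL-1β libraries and 0, 1, 0 and 0 times in LacZ CTRL libraries. It passed the test (adjusted p = 0.0435), but the call was lost without any 1 of the 4 replicates and with the replicate block (adjusted p = 0.068). In iCre IL-1β libraries it was counted 1, 0, 0 and 4 times. Il1bos, on the opposite strand, shares 25 exon bases with it. The ligand protein itself is not seen by RNA sequencing. Neutrophil markers, 5 tested of 7 listed and none with a mean of 1 CPM in any group, summed to 0.0581 to 0.124 CPM in LacZ CTRL libraries. They summed to 0.624 to 1.4 CPM in LacZ IL-1β and 0.292 to 0.669 CPM in iCre IL-1β libraries, and so were higher with IL-1β, like Il1a and Il1b. S100a8 held the most counts of the 5, with 240 over all libraries, and S100a9, which was not tested, had 0. The part of neutrophils in the levels of Il1a and Il1b was not tested.

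Il1rn (chr2:24336853-24351494, plus strand), the receptor antagonist gene, spread widely between replicates. In CTRL libraries it was at 1.45, 21.6, 3.9 and 3.34 CPM with LacZ and at 2.75, 21.9, 6.46 and 6.33 CPM with iCre. With IL-1β it was at 1.39, 7.74, 1.99 and 5.83 CPM with LacZ and at 4.41, 15.0, 7.74 and 11.3 CPM with iCre. Within each replicate number the iCre library was higher than the LacZ library in 4 of 4 pairs for CTRL, bFGF and IL-1β. Without the block edgeR called no comparison of Il1rn, whereas DESeq2 called it lower with TNFα than in CTRL (adjusted p = 0.0272) and higher with IL-1β than with TNFα (adjusted p = 0.00718), both in iCre fibroblasts. With the block it was higher in iCre libraries in CTRL (log2 fold change 0.58 ± 0.14, adjusted p = 0.0121), bFGF (0.67 ± 0.18, adjusted p = 0.0135), TGFβ (0.75 ± 0.25, adjusted p = 0.0419) and IL-1β (1.31 ± 0.16, adjusted p = 4.96e-06). Without replicate 2 the blocked calls in bFGF and TGFβ were lost (adjusted p = 0.158 and 0.421), and with a per-library correction for GC content added to the block (the GC correction) the TGFβ value was 1.18 ± 0.25. With TNFα the pairs disagreed: the iCre library of replicate 1 was 2.43 log2 units higher than its LacZ partner, and that of replicate 2 was lower, at 1.64 against 20.2 CPM.

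Against CTRL, Il1rn passed the blocked test in iCre fibroblasts with bFGF (-0.59 ± 0.16, adjusted p = 0.018) and TGFβ (-0.58 ± 0.21, adjusted p = 0.0464). The TGFβ call was lost without replicate 2 (adjusted p = 0.155) and with the GC correction (adjusted p = 0.458). With IL-1β in iCre fibroblasts Il1rn passed the blocked test only without replicate 2 (0.60 ± 0.14, adjusted p = 0.000158) or with the GC correction (0.59 ± 0.15, adjusted p = 0.00182). With TNFα in iCre fibroblasts, where DESeq2 made a call, the blocked value was -1.16 ± 0.58 (adjusted p = 0.167), or -0.38 ± 0.36 without replicate 2 (adjusted p = 0.516). There Il1rn was at 0.0751 times CTRL in replicate 2 and at 1.94 times CTRL in replicate 1. In IL-1β against TNFα it was higher in iCre fibroblasts with the block (1.49 ± 0.38, adjusted p = 0.0138), higher in 3 of 4 pairs, and the value was 0.96 ± 0.27 without replicate 2 (adjusted p = 0.0188).

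Il18 (chr9:50554827-50581840, plus strand), the gene for pro-IL-18, was low and fell with TGFβ in both viruses. LacZ CTRL libraries were at 1.16, 1.78, 2.66 and 2.76 CPM and LacZ TGFβ libraries at 0.414, 0.353, 1.28 and 0.682 CPM. iCre CTRL libraries were at 1.64, 1.5, 1.85 and 1.74 CPM and iCre TGFβ libraries at 0.265, 0.148, 0.562 and 0.802 CPM. The iCre groups did not overlap, whereas the LacZ groups did, by 1 TGFβ library. The log2 fold change was -1.60 ± 0.45 in LacZ (adjusted p = 0.0182, lost without replicate 4, adjusted p = 0.105) and -1.88 ± 0.45 in iCre fibroblasts (adjusted p = 0.00708). IL-1β libraries lay below TNFα libraries in every pair, with a call in LacZ fibroblasts (-0.91 ± 0.23, adjusted p = 0.0293, lost without replicate 1, 3 or 4, adjusted p up to 0.178). In iCre fibroblasts it was called with the block (-0.69 ± 0.21, adjusted p = 0.0343) and by DESeq2 (adjusted p = 0.0296), and the blocked call was lost without replicate 2 (adjusted p = 0.0671). Against CTRL the lower Il18 with IL-1β was not called by edgeR without the block. With it the values were -0.68 ± 0.22 in LacZ (adjusted p = 0.0136) and -0.61 ± 0.23 in iCre fibroblasts (adjusted p = 0.0304). The iCre call was also made by DESeq2 (adjusted p = 0.0207) and, with the block, was lost with the GC correction (-0.52 ± 0.22, adjusted p = 0.0752) and without replicate 2 (-0.60 ± 0.26, adjusted p = 0.0695). Il18 did not pass any test of iCre against LacZ, with the block or without it. Markers of macrophages, endothelial cells and mast cells were also lower with TGFβ, where Il18 and Il33 fell. The mean summed level went from 117 to 59.7 CPM with LacZ and from 67.1 to 44 CPM with iCre for 12 macrophage markers, and from 26.5 to 8.39 CPM and from 15 to 6.16 CPM for 6 endothelial markers. For mast cell markers, 4 tested of 7 listed, it went from 4.03 to 1.02 CPM and from 3.1 to 0.606 CPM. Neutrophil markers went the other way, from 0.0898 to 0.161 CPM with LacZ and from 0.0902 to 0.176 CPM with iCre. Mesothelial markers went from 5.6 to 3.81 CPM with LacZ and from 6.93 to 7.26 CPM with iCre. The part of any of these cells in the lower Il18 and Il33 was not tested.

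Il33 (chr19:29925114-29960718, plus strand), the alarmin gene, was the most abundant ligand of the family. LacZ CTRL libraries were at 62.9, 27.8, 42.8 and 39.6 CPM. IL-1β libraries were at 105, 64.4, 75.8 and 84 CPM with LacZ, above every CTRL library. TGFβ libraries were at 8.91, 8.28, 26.8 and 28.8 CPM with LacZ and at 9.43, 5.85, 4.38 and 4.84 CPM with iCre. Il33 rose with IL-1β in LacZ fibroblasts (0.93 ± 0.23, adjusted p = 0.0186, lost without replicate 3 or 4, where the adjusted p reached 0.112) and fell with TGFβ in both viruses, by 1.25 log2 units in LacZ (± 0.42, adjusted p = 0.0396) and by 1.88 in iCre fibroblasts (± 0.28, adjusted p = 0.00035). The LacZ TGFβ call was lost without replicate 1 or 3, where the adjusted p reached 0.207. With IL-1β in iCre fibroblasts, at 57, 70.6, 24.6 and 29.3 CPM against 30.6, 19.3, 16 and 25.4 CPM in CTRL, the rise was called with the block (0.92 ± 0.09, adjusted p = 2.8e-16, or 0.60 ± 0.09 without replicate 2, adjusted p = 1.08e-09) and by DESeq2 (adjusted p = 0.0223), but not by edgeR without the block (1.01 ± 0.33, adjusted p = 0.07). LacZ libraries with TNFα, at 61.2, 32.3, 39.9 and 46.9 CPM, overlapped CTRL, and Il33 was higher with IL-1β than with TNFα there (0.87 ± 0.20, adjusted p = 0.0202, lost without replicate 3 or 4, adjusted p up to 0.132). In iCre fibroblasts it was higher with IL-1β than with TNFα in 3 of 4 pairs, all but replicate 2, and this was called only with the block (1.09 ± 0.33, adjusted p = 0.0393, or 1.63 ± 0.21 without replicate 2, adjusted p = 1.98e-05; 0.44 ± 0.75 without the block, adjusted p = 0.814).

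Il33 was lower in iCre than in LacZ libraries in 4 of 4 pairs for CTRL and bFGF and in 3 of 4 for TGFβ, IL-1β and TNFα. Without the block edgeR called none of the 5 comparisons, the nearest being TGFβ (-1.60 ± 0.44, adjusted p = 0.0511), whereas DESeq2 called CTRL (adjusted p = 0.0241), TGFβ (adjusted p = 0.00249) and IL-1β (adjusted p = 0.026). With the block it was lower in CTRL (-0.92 ± 0.11, adjusted p = 4.11e-05), bFGF (-0.66 ± 0.13, adjusted p = 0.00159), TGFβ (-1.43 ± 0.32, adjusted p = 0.0028) and IL-1β (-0.99 ± 0.18, adjusted p = 0.000322, or -0.64 ± 0.18 with the GC correction, adjusted p = 0.0126). Markers of other cell types moved in the same CTRL comparison: 6 endothelial markers summed to 26 to 26.9 CPM in LacZ and 11.5 to 19.6 CPM in iCre libraries, and 12 macrophage markers to 68.9 to 186 and 37.5 to 98.9 CPM. With IL-1β, where Il33 was lower too, the endothelial mean was 8.99 CPM in LacZ and 11.1 CPM in iCre libraries and the macrophage mean 137 and 89.8 CPM. With TNFα the endothelial means were 12.3 and 13.4 CPM and the macrophage means 109 and 91.6 CPM. With bFGF they were 13.9 and 11.1 CPM and 89.2 and 49.3 CPM, and with TGFβ 8.39 and 6.16 CPM and 59.7 and 44 CPM. Fibroblast markers were lower in iCre libraries too, with means of 39910 CPM in LacZ and 27501 CPM in iCre libraries in CTRL, and 50581 and 27203 CPM with IL-1β. The part of any of these cells in the lower Il33 was not tested. In iCre TNFα libraries the levels were 13.4, 95.1, 5.08 and 20 CPM, so that replicate 2 was above, and the other 3 below, their LacZ partners. Accordingly the blocked difference with TNFα was -1.28 ± 0.65 with all replicates (adjusted p = 0.188) and -2.12 ± 0.27 without replicate 2 (adjusted p = 0.000562). Against CTRL, 2 further differences of Il33 were called with the block only when replicate 2 was left out. With TNFα in iCre fibroblasts the value was -0.25 ± 0.54 with all replicates and -1.03 ± 0.21 without it (adjusted p = 0.00399), and with bFGF in LacZ fibroblasts it was -0.01 ± 0.22 and -0.45 ± 0.09 (adjusted p = 4.31e-06).

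Il1r1 (chr1:40225080-40317257, plus strand), the signaling IL-1 receptor, was well expressed in all groups and responded to each ligand in LacZ fibroblasts. LacZ libraries were at 235, 175, 203 and 200 CPM in CTRL, 299, 258, 324 and 289 CPM with bFGF, and 412, 276, 304 and 340 CPM with IL-1β. With TGFβ they were at 87.9, 87, 144 and 140 CPM and with TNFα at 177, 153, 133 and 135 CPM. The bFGF, IL-1β and TGFβ libraries did not overlap CTRL, and the TNFα libraries overlapped it by 1 library. Il1r1 rose with bFGF (0.54 ± 0.12, adjusted p = 0.0163) and IL-1β (0.72 ± 0.14, adjusted p = 0.00608) and fell with TGFβ (-0.81 ± 0.18, adjusted p = 0.00519) and TNFα (-0.44 ± 0.12, adjusted p = 0.0296). The TGFβ call held without each replicate in turn, the bFGF and TNFα calls were lost without replicate 3 or 4 (adjusted p up to 0.162 and 0.175), and the IL-1β call was lost without replicate 4 (adjusted p = 0.0542).

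In iCre fibroblasts Il1r1 was at 177, 142, 150 and 165 CPM in CTRL, 250, 234, 224 and 212 CPM with IL-1β and 64.7, 66.9, 55 and 52.5 CPM with TGFβ. The 3 groups did not overlap. It rose with IL-1β (0.56 ± 0.10, adjusted p = 0.00425) and fell with TGFβ (-1.39 ± 0.11, adjusted p = 6.49e-06), and these calls held without each replicate in turn. With TNFα, at 119, 164, 97.1 and 71.4 CPM, the difference was called only with the block (-0.51 ± 0.18, adjusted p = 0.0495, or 0.107 with the GC correction). Replicate 2 alone was higher than its CTRL partner there, and without it the blocked difference was -0.77 ± 0.13 (adjusted p = 0.00113). IL-1β libraries exceeded TNFα libraries in 4 of 4 pairs with each virus, by 1.16 ± 0.14 log2 units in LacZ (adjusted p = 0.000609) and 1.02 ± 0.21 in iCre fibroblasts (adjusted p = 0.0355). The iCre call was lost without replicate 1, 3 or 4 (adjusted p up to 0.324).

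Between viruses Il1r1 was lower in iCre libraries with TGFβ (-0.97 ± 0.18, adjusted p = 0.00909) and IL-1β (-0.55 ± 0.13, adjusted p = 0.0185), where the groups did not overlap. Both calls were lost without replicate 3 or 4 (adjusted p up to 0.108), and with the block and the GC correction the IL-1β value was -0.29 ± 0.08 (adjusted p = 0.0157). With the block it was also lower in CTRL (-0.37 ± 0.06, adjusted p = 0.000603), bFGF (-0.69 ± 0.07, adjusted p = 9.92e-07) and TNFα (-0.44 ± 0.15, adjusted p = 0.049). The TNFα difference was lost with the GC correction (-0.21 ± 0.14, adjusted p = 0.353) and was -0.65 ± 0.11 without replicate 2 (adjusted p = 0.0029), the replicate in which the iCre library was the higher of the pair. In bFGF libraries, at 299, 258, 324 and 289 CPM with LacZ and 183, 180, 187 and 172 CPM with iCre, the groups did not overlap either, and DESeq2 called Il1r1 (adjusted p = 2.2e-09), although edgeR without the block called no gene there and had 2585 genes at an unadjusted p under 0.05.

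Il1r2 (chr1:40074079-40125231, plus strand), the decoy receptor gene, was low and followed IL-1β. LacZ CTRL libraries were at 0.514, 0.329, 0.55 and 0.668 CPM and LacZ IL-1β libraries at 1.75, 1.0, 1.1 and 1.2 CPM, without overlap. iCre CTRL libraries were at 0.524, 0.153, 0.259 and 0.278 CPM and iCre IL-1β libraries at 0.767, 0.909, 0.292 and 1.04 CPM. Il1r2 rose with IL-1β in LacZ fibroblasts (1.30 ± 0.32, adjusted p = 0.0172, lost without replicate 1, 3 or 4, adjusted p up to 0.0888) and was higher there than with TNFα (1.30 ± 0.33, adjusted p = 0.0338, lost without replicate 1, 3 or 4, adjusted p up to 0.161). In iCre fibroblasts the difference from CTRL was called with the block (1.24 ± 0.38, adjusted p = 0.00558) and by DESeq2 (adjusted p = 0.0458), but not by edgeR without the block (adjusted p = 0.101), nor with it once replicate 2 was left out (adjusted p = 0.125). The lower Il1r2 of iCre bFGF libraries was called with the block (-1.06 ± 0.35, adjusted p = 0.048) but not with the GC correction (-1.04 ± 0.35, adjusted p = 0.0509) or without replicate 2 (-0.82 ± 0.41, adjusted p = 0.226). With IL-1β it was -0.83 ± 0.31 with the block (adjusted p = 0.053) and -1.03 ± 0.36 without replicate 2 (adjusted p = 0.0441).

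Il1rap (chr16:26581704-26730117, plus strand), the accessory chain shared by IL1R1 and ST2, was highest with TNFα in LacZ fibroblasts. LacZ libraries were at 76.6, 38.9, 57.5 and 54.9 CPM in CTRL and at 133, 69, 90.1 and 110 CPM with TNFα, higher in 4 of 4 pairs. iCre libraries were at 52.4, 37.9, 40.6 and 42.3 CPM in CTRL and at 63.3, 98.6, 55.3 and 63.8 CPM with TNFα, without overlap. Il1rap rose with TNFα in LacZ (0.82 ± 0.24, adjusted p = 0.0329, lost without replicate 3 or 4, adjusted p up to 0.169) and in iCre fibroblasts (0.73 ± 0.18, adjusted p = 0.0131, lost without replicate 4, adjusted p = 0.0708). With the block and without replicate 2 the iCre value was 0.46 ± 0.09 (adjusted p = 0.00267). It rose with IL-1β in iCre fibroblasts (0.51 ± 0.15, adjusted p = 0.0435, lost without replicate 1, 3 or 4, adjusted p up to 0.205, and 0.78 ± 0.07 with the block and the GC correction) and, with the block only, in LacZ fibroblasts (0.43 ± 0.08, adjusted p = 3.06e-05). In LacZ fibroblasts it was lower with IL-1β than with TNFα in 4 of 4 pairs, which was called with the block (-0.40 ± 0.07, adjusted p = 1.87e-05) and not without it (adjusted p = 0.326). With bFGF in iCre fibroblasts it was called only with the block (0.32 ± 0.10, adjusted p = 0.0313), and not with the GC correction (adjusted p = 0.131). The antisense gene Gm20319 shares 552 exon bases with the 11360 of Il1rap.

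With TGFβ the direction of Il1rap differed between the viruses. LacZ TGFβ libraries, at 89, 60.3, 62.2 and 67.4 CPM, were above their CTRL partners in 4 of 4 pairs, and iCre TGFβ libraries, at 37.3, 26.6, 31.4 and 32.3 CPM, were below theirs in 4 of 4. The LacZ difference was called only with the block (0.33 ± 0.10, adjusted p = 0.0173), and the iCre difference without it (-0.42 ± 0.13, adjusted p = 0.0292, lost without replicate 3 or 4, adjusted p up to 0.104). The test of the difference itself gave an interaction of -0.76 ± 0.26 without the block (adjusted p = 0.142) and -0.77 ± 0.13 with it (adjusted p = 0.000722). With the GC correction the interaction was -0.43 ± 0.13 (adjusted p = 0.0755) and the iCre difference was -0.11 ± 0.08 (adjusted p = 0.379), so both calls were lost. Between viruses, Il1rap was lower in iCre TGFβ than in LacZ TGFβ libraries without overlap (-1.16 ± 0.14, adjusted p = 0.000872), a call that held without each replicate in turn and with the GC correction (-0.76 ± 0.08, adjusted p = 4.84e-06). With the block Il1rap was also lower in iCre libraries in CTRL (-0.38 ± 0.08, adjusted p = 0.00457) and with IL-1β (-0.32 ± 0.09, adjusted p = 0.00754), of which the IL-1β value turned to 0.06 ± 0.08 with the GC correction (adjusted p = 0.711). With TNFα the difference between viruses was called only with the block and without replicate 2 (-0.85 ± 0.10, adjusted p = 0.000447), the replicate in which the iCre library was the higher of the pair.

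**Figure D2:**
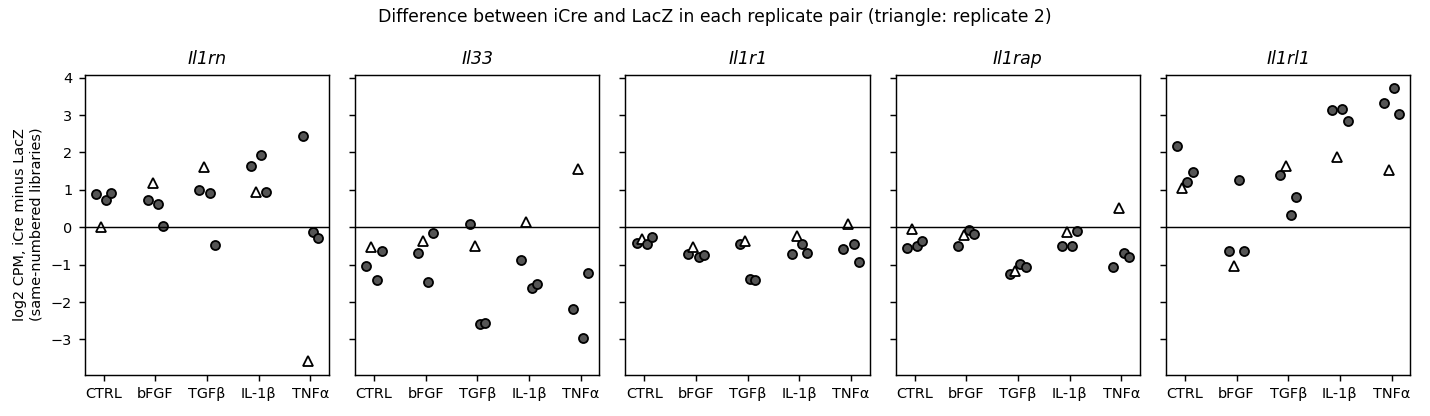
Difference in log2 CPM between the iCre and the LacZ library of the same replicate number, for 5 members and 5 treatments, with 4 points each and triangles for replicate 2. All 4 Il1r1 and Il1rap points lie below 0 with TGFβ, all 4 Il1rl1 points lie above 0 with IL-1β and TNFα, and replicate 2 lies opposite to the other 3 for Il33 and Il1rap with TNFα.

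Il1rl1 (chr1:40429570-40465415, plus strand), the gene for ST2, had the widest range of the family and was ordered the same way by TNFα and IL-1β in every replicate. LacZ CTRL libraries were at 0.402, 161, 0.426 and 1.92 CPM, and LacZ TNFα libraries at 2.54, 711, 2.52 and 8.71 CPM. iCre CTRL libraries were at 2, 335, 1.06 and 5.39 CPM, and iCre TNFα libraries at 26, 2046, 33.8 and 71 CPM. With IL-1β, LacZ libraries were at 1.52, 238, 0.997 and 5.24 CPM and iCre libraries at 13.8, 879, 9.27 and 37.9 CPM. Replicate 2 was the highest library in all 10 groups, and the ranges of all groups overlapped. Without the block the SE of the Il1rl1 differences was 1.05 to 3.12 log2 units and no comparison was called, and DESeq2 gave no adjusted p for any of them.

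Within pairs, TNFα raised Il1rl1 in LacZ fibroblasts 6.33, 4.42, 5.91 and 4.54 times and in iCre fibroblasts 13, 6.11, 32 and 13.2 times. IL-1β raised it 3.79, 1.48, 2.34 and 2.73 times in LacZ and 6.89, 2.63, 8.77 and 7.03 times in iCre fibroblasts. With the block the log2 fold changes were 2.27 ± 0.09 for TNFα (adjusted p = 1.5e-12) and 1.03 ± 0.14 for IL-1β (adjusted p = 2.32e-07) in LacZ fibroblasts. They were 3.66 ± 0.30 for TNFα (adjusted p = 1.7e-05) and 2.33 ± 0.11 for IL-1β in iCre fibroblasts (adjusted p = 1.49e-46). The interaction with TAK1 deletion was 1.53 ± 0.37 for IL-1β (adjusted p = 0.00665) and 1.65 ± 0.45 for TNFα (adjusted p = 0.0133) with the block. Without replicate 2, and with the block over the other 3, these interactions were 1.39 ± 0.26 (adjusted p = 0.000322) and 1.73 ± 0.33 (adjusted p = 0.00186). With the GC correction and all replicates they were 1.75 ± 0.38 (adjusted p = 0.00444) and 1.87 ± 0.45 (adjusted p = 0.00696). In LacZ fibroblasts IL-1β libraries were below TNFα libraries in 4 of 4 pairs, as in iCre fibroblasts, by 1.21 ± 0.11 and 1.23 ± 0.13 log2 units with the block (adjusted p = 1.37e-09 and 1.95e-05).

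Between viruses, iCre libraries exceeded their LacZ partners 10.2, 2.88, 13.4 and 8.15 times with TNFα and 9.04, 3.7, 9.3 and 7.24 times with IL-1β. In CTRL the ratios were 4.97, 2.08, 2.48 and 2.81, and with TGFβ 2.66, 3.1, 1.27 and 1.75. The blocked differences were 2.86 ± 0.32 log2 units with TNFα (adjusted p = 0.000287), 2.58 ± 0.16 with IL-1β (adjusted p = 5.88e-10), 1.31 ± 0.13 in CTRL (adjusted p = 3.94e-06) and 1.07 ± 0.16 with TGFβ (adjusted p = 6.17e-05). Each was also called without replicate 2. Mast cell markers, 4 tested of 7 listed and most of the counts from Kit, summed to 1 to 1.6 CPM in LacZ and 1.74 to 6.39 CPM in iCre libraries with IL-1β, without overlap. They summed to 1.61 to 2.92 and 1.19 to 6.66 CPM with TNFα, and to 3.05 to 4.58 and 2.35 to 4.25 CPM in CTRL. Mesothelial markers, 6 in all, summed to 1.92 to 2.85 CPM in LacZ and 3.42 to 7.97 CPM in iCre libraries with IL-1β, without overlap. Their LacZ and iCre means were 4.24 and 5.05 CPM with TNFα, 5.6 and 6.93 CPM in CTRL, 3.81 and 7.26 CPM with TGFβ and 4.48 and 5.47 CPM with bFGF. The part of mast and mesothelial cells in the higher Il1rl1 was not tested. With bFGF, LacZ libraries were at 2.71, 574, 1.19 and 13.2 CPM and iCre libraries at 1.72, 279, 2.93 and 8.45 CPM. The iCre library was lower in 3 of 4 pairs there, and the difference was not called with the block (-0.50 ± 0.20, adjusted p = 0.104). Against CTRL, bFGF raised Il1rl1 in LacZ fibroblasts with the block (2.19 ± 0.16, adjusted p = 9.02e-08), whereas in iCre fibroblasts the value was 0.29 ± 0.19 (adjusted p = 0.391) and, without replicate 2, 0.66 ± 0.21 (adjusted p = 0.0187). The bFGF interaction was -1.76 ± 0.38 with the block (adjusted p = 0.434), a comparison in which no gene of the 25210 was called.

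TGFβ moved Il1rl1 one way in 3 replicates and the other way in replicate 2. LacZ TGFβ libraries were at 2.43, 28.8, 3.69 and 4.92 CPM, 6.04, 8.66 and 2.57 times CTRL in replicates 1, 3 and 4 and 0.179 times CTRL in replicate 2. iCre TGFβ libraries were at 6.45, 89.2, 4.68 and 8.6 CPM, 3.23, 4.43 and 1.6 times CTRL in replicates 1, 3 and 4 and 0.267 times CTRL in replicate 2. The blocked differences over all 4 were 0.70 ± 0.81 in LacZ (adjusted p = 0.553) and 0.42 ± 0.51 in iCre fibroblasts (adjusted p = 0.58). Without replicate 2 they were 2.26 ± 0.30 (adjusted p = 8.57e-06) and 1.45 ± 0.19 (adjusted p = 1.85e-10).

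**Figure D3:**
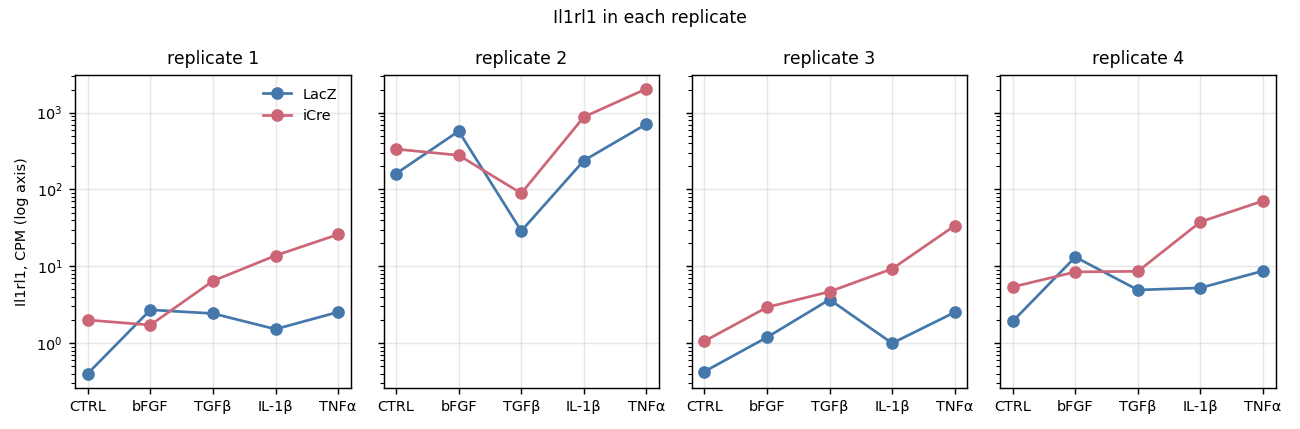
Il1rl1 in CPM on a log axis, in 1 panel per replicate, by treatment on the x axis and virus by colour, each point 1 library. The iCre line runs above the LacZ line with IL-1β and TNFα in all 4 panels, and replicate 2 starts at 161 CPM in LacZ CTRL against 0.402 to 1.92 CPM in the others.

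Counted over the 9 members, 1 was called for bFGF in LacZ fibroblasts (11.6% of all tested genes), 3 for TGFβ (36.9% of all), 5 for IL-1β (20.7%) and 2 for TNFα (21.3%). In iCre fibroblasts the counts were 0 for bFGF (2.42%), 4 for TGFβ (37.4%), 2 for IL-1β (16.3%) and 1 for TNFα (27.0%). For iCre against LacZ they were 0 in CTRL (0.0754%), 0 in bFGF (0%), 2 in TGFβ (8.37%), 2 in IL-1β (16.1%) and 0 in TNFα (27.3%), and for IL-1β against TNFα they were 5 in LacZ (9.62%) and 1 in iCre (2.65%). The median log2 fold change of the 9 was 0.72 for IL-1β in LacZ fibroblasts, against -0.10 over all tested genes, and -1.25 for TGFβ, against -0.17. No interaction of edgeR without the block was called for a member, and the counts at an unadjusted p under 0.05 were 1 for bFGF (765 of all 25210 genes), 2 for TGFβ (3839), 0 for IL-1β (4975) and 0 for TNFα (6923). Of all genes, 0%, 4.51%, 7.71% and 16.1% were called in these interactions. DESeq2 called 0 of the 36 but gave no adjusted p for 11 of them, those of Il1rl1 included. With the block and without replicate 2, the TGFβ interaction of Il1r1 (-0.75 ± 0.18, adjusted p = 0.00651) and the TNFα interaction of Il1rap (-0.39 ± 0.13, adjusted p = 0.0432) were called in addition to those given above. With the block and all replicates, neither was called (-0.59 ± 0.21, adjusted p = 0.0976, and -0.07 ± 0.28, adjusted p = 0.943). With the GC correction the values were -0.37 ± 0.20 (adjusted p = 0.443) and 0.26 ± 0.27 (adjusted p = 0.599).

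With the replicate block the member counts in LacZ fibroblasts were 2 for bFGF (27.3% of all genes), 4 for TGFβ (42.0%), 7 for IL-1β (33.5%) and 3 for TNFα (35.5%). In iCre fibroblasts they were 2 for bFGF (16.7%), 5 for TGFβ (41.5%), 6 for IL-1β (33.8%) and 3 for TNFα (36.1%). For iCre against LacZ they were 5 in CTRL (14.5%), 4 in bFGF (13.9%), 5 in TGFβ (20.8%), 6 in IL-1β (29.5%) and 2 in TNFα (32.2%). For the interactions they were 0 for bFGF (0%), 1 for TGFβ (8.04%), 1 for IL-1β (16.9%) and 1 for TNFα (25.1%), and for IL-1β against TNFα they were 7 in LacZ (24.2%) and 5 in iCre (17.1%). Comparisons with CTRL within a virus share the same 4 CTRL libraries, so their counts are not independent.

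**Figure D4:**
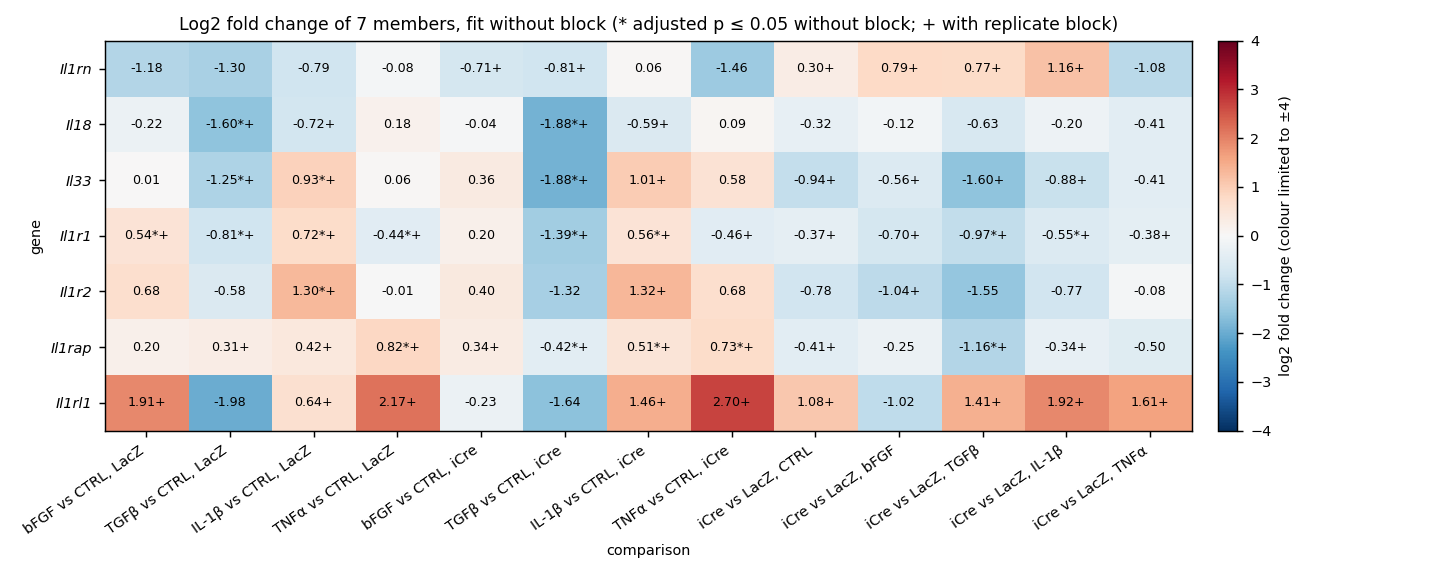
Log2 fold changes of 7 members in 13 comparisons from the fit without a block, by colour and number, with an asterisk for adjusted p of at most 0.05 without and a plus sign for the same with the replicate block. Il1r1 carries an asterisk in all 4 ligand columns of LacZ fibroblasts, and Il1rl1 carries only plus signs.

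The order of the 10 groups by mean level differed between members. Il1r1 ran from 333 CPM in LacZ IL-1β and 293 CPM in LacZ bFGF down to 59.8 CPM in iCre TGFβ. Its neighbours in the order overlapped except LacZ bFGF against iCre IL-1β, at 230 CPM, and iCre TNFα, at 113 CPM, against iCre TGFβ. Il33 ran from 82.2 CPM in LacZ IL-1β to 6.12 CPM in iCre TGFβ, and Il1rap from LacZ TNFα, the highest mean, to 31.9 CPM in iCre TGFβ, where only the last step of Il1rap was free of overlap. Il1rl1 ran from 544 CPM in iCre TNFα to 9.96 CPM in LacZ TGFβ, with overlap at every step. These means rest on replicate 2: by the median of 4 libraries, iCre TNFα was at 52.4 CPM, LacZ TGFβ at 4.31 CPM and LacZ CTRL, the lowest, at 1.17 CPM. Il18 was highest in LacZ TNFα at 2.37 CPM and lowest in iCre TGFβ at 0.444 CPM. The first step of Il1a, from LacZ IL-1β to iCre TNFα, was free of overlap, and no step of Il1b, Il1rn, Il18, Il33 or Il1r2 was.

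The genes whose group means over the 10 groups most resembled a member's, by Pearson correlation of log2 CPM among 13089 genes, were Cd302, Epas1 and Pdzd2 for Il33 (r = 0.977 to 0.958), Pvt1, Lgals8 and Trim2 for Il18 (0.988 to 0.969) and Hsd11b1, Insig2 and Pi15 for Il1r1 (0.947 to 0.928). They were Cers6, Dpy19l1 and Fam78b for Il1rap (0.888 to 0.880), Trap1, D10Wsu102e and Szrd1 for Il1rl1 (0.969 to 0.964) and Syndig1, Gm10134 and Zfp318 for Il1rn (0.914 to 0.884). These points share libraries and are given as descriptions. Over the 40 libraries the values for the nearest gene were 0.81 for Cd302, 0.86 for Pvt1, 0.79 for Hsd11b1, 0.76 for Cers6, 0.75 for Trap1 and 0.26 for Syndig1.

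Other IL-1 family genes were followed as a list of 12, of which 9 were tested. Il36a, Il36b and Il36rn had no counts. Il18bp, the gene for the secreted inhibitor of IL-18, was at 2.43, 6.21, 3.92 and 6.97 CPM in LacZ CTRL libraries and at 29.8, 59.3, 36.7 and 48.4 CPM in LacZ TNFα libraries. In iCre TNFα libraries it was at 6.54, 3.28, 4.55 and 4.18 CPM, overlapping iCre CTRL. Il18bp rose in LacZ fibroblasts with TNFα (3.17 ± 0.33, adjusted p = 0.000187) and IL-1β (1.53 ± 0.35, adjusted p = 0.0123), and its TNFα interaction was -3.01 ± 0.47 (adjusted p = 0.000441). The IL-1β interaction was called by edgeR only with the block (-1.26 ± 0.20, adjusted p = 0.000224), and by DESeq2 without one.

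Il18rap, the gene for the accessory chain of the IL-18 receptor, named after its values were seen, was also highest in replicate 2, at 3.7 CPM in LacZ TNFα and 19 CPM in iCre TNFα, against 0.249 to 0.606 and 1.42 to 8.14 CPM in the others. It was higher in iCre libraries with the block for TNFα (3.22 ± 0.36, adjusted p = 0.00026) and IL-1β (1.64 ± 0.30, adjusted p = 0.000332). Without the block edgeR called neither, whereas DESeq2 called the TNFα difference. Il1rapl1 had interactions of -2.96 ± 0.77 with TNFα (adjusted p = 0.0148) and -2.18 ± 0.64 with IL-1β (adjusted p = 0.0483), which the GC correction with the block ended (adjusted p = 0.054 and 0.105). Sigirr, an inhibitory receptor of the family, fell with TGFβ in LacZ fibroblasts (-2.36 ± 0.45, adjusted p = 0.00214), as did Il18bp (-1.20 ± 0.38, adjusted p = 0.0294). Of the 9 tested, 1 rose and 0 fell in LacZ fibroblasts, for IL-1β as for TNFα, and 0 rose and 1 fell with each in iCre fibroblasts. With the block, LacZ fibroblasts had 3 higher after IL-1β and 4 after TNFα, and iCre fibroblasts had 2 higher and 1 lower after IL-1β and 1 of each after TNFα. Of all genes, 20.7% and 21.3% were called without the block with IL-1β and TNFα in LacZ and 16.3% and 27.0% in iCre fibroblasts. With the block these shares were 33.5% and 35.5% in LacZ and 33.8% and 36.1% in iCre fibroblasts.

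Of 11 genes that process IL-1 ligands or form inflammasomes, 4 rose in LacZ fibroblasts given IL-1β, 5 rose in those given TNFα, and none fell. In iCre fibroblasts 2 rose with IL-1β and 3 with TNFα. The block gave 6 that rose and 1, Pycard, that fell after IL-1β in LacZ fibroblasts (-0.59 ± 0.15, adjusted p = 0.00182). With TGFβ in LacZ fibroblasts 1 rose and 4 fell without the block, namely Casp8 (0.68 ± 0.08) and Casp1 (-2.44 ± 0.36), Pycard (-2.32 ± 0.34), Gsdmd (-1.22 ± 0.23) and Casp4 (-0.40 ± 0.11), at adjusted p values of up to 0.0193, where 36.9% of all genes were called. With IL-1β and TNFα, the shares of all genes called without the block were 20.7% and 21.3% with LacZ and 16.3% and 27.0% with iCre. With the block the share for IL-1β with LacZ was 33.5%. Casp4, an inflammatory caspase, was at 25.5, 33.5, 27.7 and 29.7 CPM in LacZ CTRL libraries, 111, 122, 135 and 140 CPM in LacZ TNFα libraries and 48, 35.3, 31.5 and 34.3 CPM in iCre TNFα libraries. The log2 fold change with TNFα was 2.13 ± 0.10 in LacZ (adjusted p = 2.13e-06) and 0.67 ± 0.14 in iCre fibroblasts (adjusted p = 0.0064), and the interaction was -1.47 ± 0.18 (adjusted p = 6.26e-05). With the block and the GC correction the iCre value was 1.31 ± 0.11 (adjusted p = 1.14e-05) and the interaction -0.79 ± 0.15 (adjusted p = 0.00133). The TNFα interaction was also negative for Casp1 (-1.63 ± 0.53, adjusted p = 0.0458), Gsdmd (-0.93 ± 0.13, adjusted p = 0.000251) and Pycard (-1.21 ± 0.35, adjusted p = 0.0245), the genes for the caspase that cuts pro-IL-1β, the pore-forming gasdermin D and the inflammasome adaptor ASC. Casp8 went the other way (0.47 ± 0.11, adjusted p = 0.00931).

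Nlrp3, an inflammasome sensor, rose with IL-1β in LacZ fibroblasts (1.98 ± 0.60, adjusted p = 0.0403), at 0.894, 0.489, 0.32 and 1.47 CPM against 0.179, 0.395, 0.071 and 0.174 CPM in CTRL. Mefv, the pyrin gene, was counted 6, 15, 6 and 7 times in LacZ IL-1β libraries and 0 times in LacZ CTRL, iCre CTRL and iCre IL-1β libraries. It was called in LacZ IL-1β against CTRL (adjusted p = 0.00389) and in iCre against LacZ with IL-1β (adjusted p = 0.00436).

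Of 15 genes of the proximal signaling chain, 6 rose and 1 fell with IL-1β and 5 rose and 1 fell with TNFα, in cells with LacZ, where 20.7% and 21.3% of all genes were called. With the block 7 were higher and 3 lower after IL-1β, and 7 higher and 1 lower after TNFα, where 33.5% and 35.5% of all genes were called. Irak3, the gene for a kinase-inactive inhibitor of the pathway, rose with IL-1β (0.86 ± 0.21, adjusted p = 0.0173) and TNFα (0.61 ± 0.18, adjusted p = 0.0366) in LacZ fibroblasts. In iCre fibroblasts it fell with TNFα (-1.23 ± 0.36, adjusted p = 0.0305), and the interaction was -1.85 ± 0.44 (adjusted p = 0.00848). Irak2 rose with IL-1β in LacZ fibroblasts (0.82 ± 0.14, adjusted p = 0.00222). Myd88, the shared adaptor, rose with TNFα in LacZ fibroblasts (0.83 ± 0.07, adjusted p = 7.56e-05) with an interaction of -0.64 ± 0.13 (adjusted p = 0.00311). Irak1 and Tab2 were also higher with both ligands in LacZ fibroblasts, by 0.20 to 0.34 log2 units, Tab1 was lower with IL-1β (-0.33 ± 0.08, adjusted p = 0.0153), and Peli2 was lower with TNFα (adjusted p = 0.000221). Traf6, the gene for a ubiquitin ligase of the chain, had a TNFα interaction of -0.41 ± 0.13 (adjusted p = 0.0415). With TGFβ in LacZ fibroblasts 6 of the 15 rose and 3 fell, against 36.9% of all genes called. Irak2 (1.74 ± 0.16), Tab2 (0.76 ± 0.12), Ube2n (0.68 ± 0.11), Map3k7 (0.58 ± 0.08), Peli1 (0.44 ± 0.09) and Tollip (0.35 ± 0.11) rose, and Irak3 (-1.52 ± 0.20), Peli2 (-1.29 ± 0.16) and Irak4 (-0.46 ± 0.09) fell, at adjusted p values of up to 0.029. Map3k7 rose in LacZ fibroblasts with IL-1β (0.53 ± 0.09, adjusted p = 0.00248) and TNFα (0.64 ± 0.08, adjusted p = 0.000626), with interactions of -0.54 ± 0.10 (adjusted p = 0.00247) and -0.44 ± 0.12 (adjusted p = 0.0159). It was 0.82 ± 0.09 log2 units lower in iCre libraries with IL-1β (adjusted p = 0.000274) and 0.71 ± 0.10 with TNFα (adjusted p = 0.000829). The interactions of Tab1 and Tab3, at 0.46 to 0.49 and -0.65 to -0.60 with TNFα and IL-1β, were called without the block and lost with the GC correction. The IL-1β interaction of Tab2 (-0.35 ± 0.10, adjusted p = 0.0405) was still called with the block and the GC correction (-0.37 ± 0.09, adjusted p = 0.00852).

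**Figure D5:**
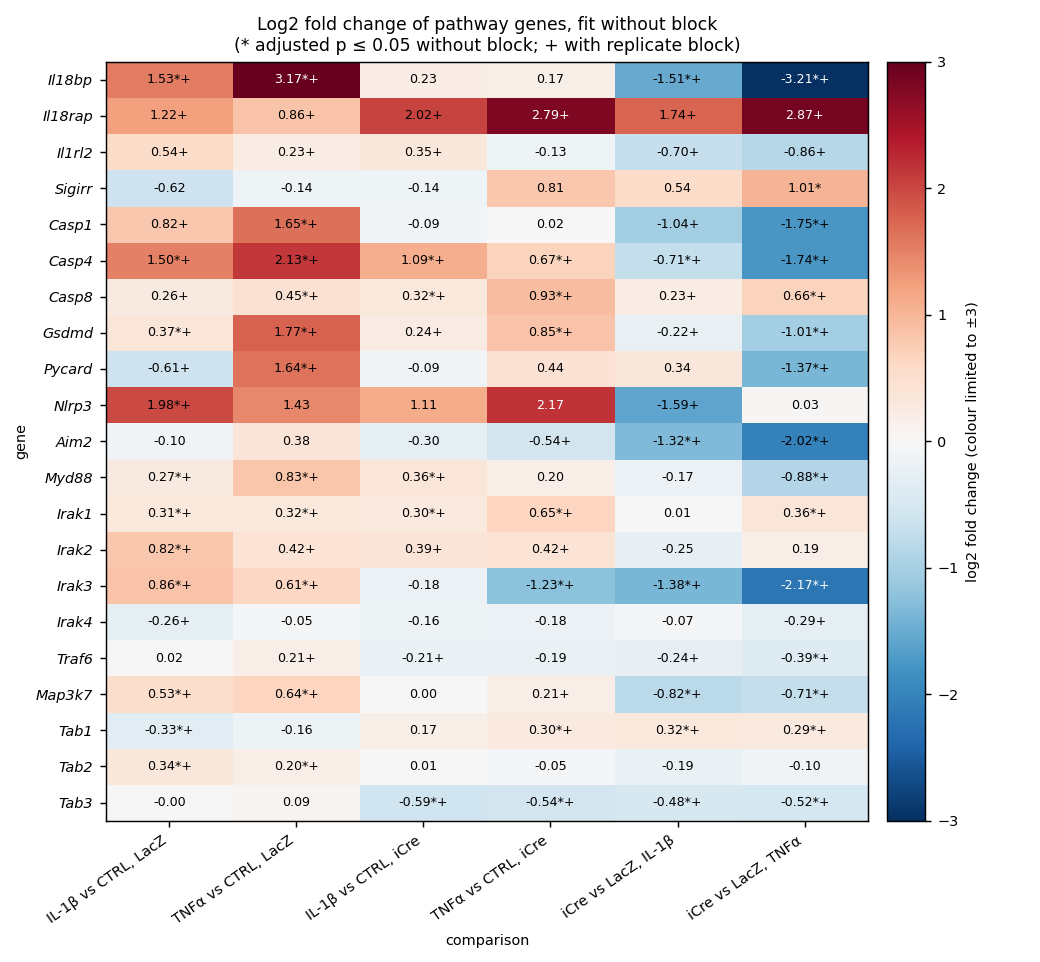
Log2 fold changes of 21 pathway genes in 6 comparisons from the fit without a block, by colour and number, with an asterisk for adjusted p of at most 0.05 without and a plus sign for the same with the replicate block. Il18bp, Casp1, Casp4, Gsdmd and Pycard are positive with TNFα in LacZ fibroblasts and negative in iCre against LacZ with TNFα.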

How the data were processed

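PolyA RNA of 40 libraries was sequenced single-end. The authors aligned reads to mm10 (GRCm38) with STAR and counted them per gene with HTSeq 0.10.0, after FastQC (0.10.1 in the submitters' processing notes, another version in the paper), and deposited raw counts for 55414 gene identifiers. The strand setting and annotation release are not given in the sources used here, and the labels and the paper name different library kits. Groups were taken from the labels. Genes with at least 10 counts in all (25210) were tested in edgeR 4.0.16 (R 4.3.3) with TMM scaling and the quasi-likelihood test, using only the libraries of a comparison, and a call is a Benjamini-Hochberg adjusted p of at most 0.05. The SE is the log2 fold change divided by the root of F. DESeq2 1.42.0, RLE scaling, other filters, a fit of all 40 libraries, leave-one-out fits, a replicate block, and that block with a per-library correction for GC content were alternatives.

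The labels do not say what a replicate number marks. Deviations from the group means had a mean r of 0.557 between same-numbered libraries (180 pairs, 0.0508 to 0.863) and of -0.158 between others (540 pairs, -0.723 to 0.439), so the ranges overlapped. Deviations within a group sum to 0, which by itself lowers the second mean. Every pair of every pairwise comparison was above 0.1 (lowest 0.335), and all 40 libraries were closest to one of their own number, so the numbers were taken as pairs from the data. No pair of libraries among 780 was identical.

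The 9 members, and the pathway lists, were chosen with earlier results of these data known. All members are named. Pathway genes are named if called in LacZ libraries or in the interaction with IL-1β or TNFα, with 3 genes of most similar pattern per member with a mean of at least 1 CPM. Intervals and floors (3 counts) cover counting error only. The scripts were tested on simulated data.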

Additional observations from a re-analysis of the deposited data

Results flagged for a closer look

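Of 70 sets of 4 libraries tested, 13 had 1 library farther from the others than Dixon's 95% critical value allows, where chance gives about 1 in 20, and all 13 were replicate 2. Of these, 10 were Il1rl1. The sets are not independent, since groups share replicate numbers, and the critical value assumes normal values whereas CPM was not log-transformed. The 1 in 20 is therefore a rough mark only.

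For Il1rl1, replicate 2 with LacZ was at 161 CPM in CTRL (others 0.402 to 1.92), 574 with bFGF (1.19 to 13.2), 28.8 with TGFβ (2.43 to 4.92), 238 with IL-1β (0.997 to 5.24) and 711 with TNFα (2.52 to 8.71). With iCre it was at 335 CPM in CTRL (1.06 to 5.39), 279 with bFGF (1.72 to 8.45), 89.2 with TGFβ (4.68 to 8.6), 879 with IL-1β (9.27 to 37.9) and 2046 with TNFα (26 to 71). For Il1rn, replicate 2 was at 21.6 CPM in LacZ CTRL (others 1.45 to 3.9) and 20.2 CPM in LacZ TNFα (0.95 to 4.05). For Il33 it was at 95.1 CPM in iCre TNFα (5.08 to 20).

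With the replicate block, the response to a ligand differed between the viruses for Il1rl1 with IL-1β (edgeR interaction 1.53, adjusted p = 0.00665) and TNFα (1.65, adjusted p = 0.0133) and for Il1rap with TGFβ (-0.77, adjusted p = 0.000722). Il1rap moved in opposite directions in the viruses in 4 of 4 pairs with TGFβ. The Il1rap interaction was not called with the GC correction.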

How the results depend on the processing

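Of 28 member calls made without the block, 27 were also made with the replicate block (Il1b in LacZ IL-1β was lost), and 7 held without each replicate in turn. Calls lost numbered 9 without replicate 1, 4 without replicate 2, and 18 without replicate 3 and without replicate 4. Calls in LacZ fibroblasts against CTRL numbered 11, with 3 to 11 leaving out a replicate. Those in iCre fibroblasts numbered 7, with 16 under the replicate block, 12 under the block with GC correction, 11 by DESeq2 and 4 to 12 leaving out a replicate. For iCre against LacZ there were 4, with 22 under the replicate block, 19 under the block with GC correction, 8 by DESeq2 and 1 to 12 leaving out a replicate. For IL-1β against TNFα there were 6, with 12 under the replicate block and under the block with GC correction, 3 with all 40 libraries in 1 fit and 1 to 5 leaving out a replicate. Interactions numbered 0, with 3 under the replicate block, 2 with GC correction added, and 0 in every leave-one-out fit. A fit without replicate 2 with the replicate block, chosen after seeing the data, gave 18, 17, 21, 10 and 5 calls for LacZ, iCre, iCre against LacZ, IL-1β against TNFα and the interactions. For iCre against LacZ with IL-1β, the block with GC correction reversed Il1rap to 0.06 and Casp4 to 0.02. The cause was not tested. Of 131 calls of pathway genes made without the block, 26 were lost without replicate 1, 16 without replicate 2, 58 without replicate 3 and 49 without replicate 4. DESeq2 gave no adjusted p for 52 member tests, the median of all genes moved by at most 0.045 log2 units between TMM and RLE scaling, and 5 of 90 group levels moved by over 1 SD with the raw library size. Depth limits Il1a and Il1b, where a library had at most 14 and 9 counts.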
